A study of Mus musculus with 12 samples.

Results

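Acyl-CoA thioesterases (Acot genes) were followed in primary mouse hepatocytes exposed to benzbromarone (BBR), a uricosuric drug, to oleic acid (OA), or to both. The 9 genes, Acot1, Acot2, Acot3, Acot4, Acot7, Acot8, Acot9, Acot12 and Acot13, were taken by symbol from 22471 listed features, and every one of them was listed in all 12 libraries, Acot3 with a count of 0 in ConOA replicate 1. The family was chosen by measured values, because Acot1 stood among the largest rises with BBR, so the members' differences between BBR-exposed and unexposed cells are described here with no p-value, and their calls are only counted beside the share of all genes called. Genes outside the 9 have p-values in these comparisons too. Tests are given for the OA differences and for the interaction of BBR with OA, which share their libraries with the BBR comparisons and are therefore not independent of them.

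The cells were isolated from C57BL/6J mice, all male and 6 weeks of age, and were cultured for 16 h in 4 groups of 3 libraries. The Con group received neither agent, ConOA received 0.2 mM OA, BBR received 15 µM of the drug, and BBROA received 15 µM BBR together with 0.2 mM OA. All 4 groups were wild type and shared the same isolation by collagenase perfusion. The sources did not state whether the 3 libraries of a group came from separate mice, so the p-values measure the spread between libraries, which may be technical. Library totals lay between 15485508 and 23668379 estimated counts, so that 3 counts, used as the detection floor, corresponded to 0.127 to 0.194 CPM, the unit of levels here (counts scaled to a common library size). These floors and the intervals below cover counting error only. Hepatocyte markers, of which 6 of 7 listed were in the files, summed to between 33561 and 36147 CPM without OA and to between 38195 and 41131 CPM with OA. Most of that sum was Alb, at 28093 ± 873 CPM in Con (SD, n = 3), and single markers moved apart. Between BBR and Con, 1 of 6 rose, Ttr by 0.18 on the log2 scale, and 2 fell, Fgb with -0.81 and Hnf4a with -0.26. Between ConOA and Con, 3 rose, Apoa1 by 0.89, Alb by 0.20 and Ttr by 0.16, and 1 fell, Fgb with -0.25. Kupffer cell markers summed to between 17.6 and 32.5 CPM over the libraries, a range within which single markers moved apart with OA: between ConOA and Con, 2 of 7 rose, Marco by 2.51 and Adgre1 by 1.41 on the log2 scale, and 5 fell, Clec4f, Cd5l, Vsig4, C1qa and C1qb, with values between -1.28 and -0.47. Endothelial markers summed to between 51.1 and 53.9 CPM in Con, 57.9 and 62.8 CPM in BBR, 47.5 and 60.9 CPM in ConOA, and 57.8 and 58.2 CPM in BBROA. Between BBR and Con, 3 of 6 were higher, Kdr by 0.50, Pecam1 by 0.39 and Cdh5 by 0.30 on the log2 scale, and 0 were lower. Stellate markers summed to between 19.1 and 26.2 CPM. Cholangiocyte markers summed to between 592 and 720 CPM in Con, 390 and 422 CPM in BBR, 243 and 273 CPM in ConOA, and 199 and 240 CPM in BBROA, with the defining marker Krt7 at 0 in every Con library. Most of that sum was Spp1, at 613 ± 62.3 CPM in Con and 343 ± 17.9 CPM in BBR (SD, n = 3), while the other 3 tested cholangiocyte markers were higher in BBR than in Con, Epcam by 0.92, Krt19 by 0.68 and Sox9 by 0.61 on the log2 scale. The part of these shifts in the thioesterase results was not tested, and in bulk RNA fewer cells of a type cannot be told apart from less RNA per cell.

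Acyl-CoA thioesterases cleave fatty acyl-CoA esters into a free fatty acid and coenzyme A, the reverse of the activation step carried out by acyl-CoA synthetases. The type I enzymes share an alpha/beta-hydrolase fold and, in the mouse, lie side by side on one chromosome although their products work in different compartments. The type II enzymes have an unrelated hotdog fold and are scattered over the genome. In liver, several type I genes are classical targets of peroxisome proliferator-activated receptors (PPARs) and respond to fasting and to fibrate drugs.

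The type I members carried the widest range of levels. Acot1, the cytosolic enzyme for long-chain acyl-CoA, was at 0.902, 0.952 and 0.591 CPM in the Con libraries and at 1.25, 0.759 and 0.664 CPM in ConOA. It reached 11.7, 8.78 and 7.25 CPM in BBR and 13.9, 15.2 and 13.3 CPM in BBROA. All 6 libraries with BBR lay above all 6 without it, Con and ConOA overlapped, and BBROA lay above BBR. The log2 fold change of Acot1 was 3.53 (SE 0.23) between BBR and Con, an 11.5-fold difference, and 3.99 (SE 0.18) between BBROA and ConOA, a 15.9-fold difference.

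Acot2, its mitochondrial counterpart, separated all 4 groups. It measured 8.42, 8.80 and 7.60 CPM in Con, 15.5, 13.7 and 13.5 CPM in ConOA, 23.3, 19.3 and 22.3 CPM in BBR, and 36.4, 37.2 and 37.4 CPM in BBROA. No group overlapped its neighbour in that order. The log2 fold change with BBR was 1.40 (SE 0.094) in the absence of OA and 1.38 (SE 0.072) in its presence.

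Acot4, a peroxisomal enzyme that hydrolyses succinyl-CoA, showed the smallest BBR difference among the type I members. Its levels were 9.67, 9.71 and 8.66 CPM in Con, 15.7, 15.4 and 13.5 CPM in ConOA, 16.2, 14.3 and 13.9 CPM in BBR, and 23.4, 21.7 and 25.2 CPM in BBROA. ConOA and BBR overlapped, Con lay below both, and BBROA lay above both. The log2 fold change with BBR was 0.68 (SE 0.096) without OA and 0.65 (SE 0.086) with OA.

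Acot3, another peroxisomal long-chain enzyme, was nearly silent in the absence of BBR. The 3 Con libraries held 3 counts in total and the 3 ConOA libraries held 2, against 55 in BBR and 18 in BBROA. In CPM, the BBR libraries stood at 1.38, 0.705 and 0.752 and the BBROA libraries at 0.101, 0.582 and 0.298. BBROA replicate 1 was thus below the level that 3 counts represent, while the other 5 libraries with BBR were above it. The ratio of BBR to Con was 21.1, with a 95% counting interval from 6.84 to 105.3, and the ratio of BBROA to ConOA was 9.05, with an interval from 2.17 to 80.4. Acot3 passed the filter on low counts only in comparisons that held the BBR group, so a call there was favoured by the filter.

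**Figure D1:**
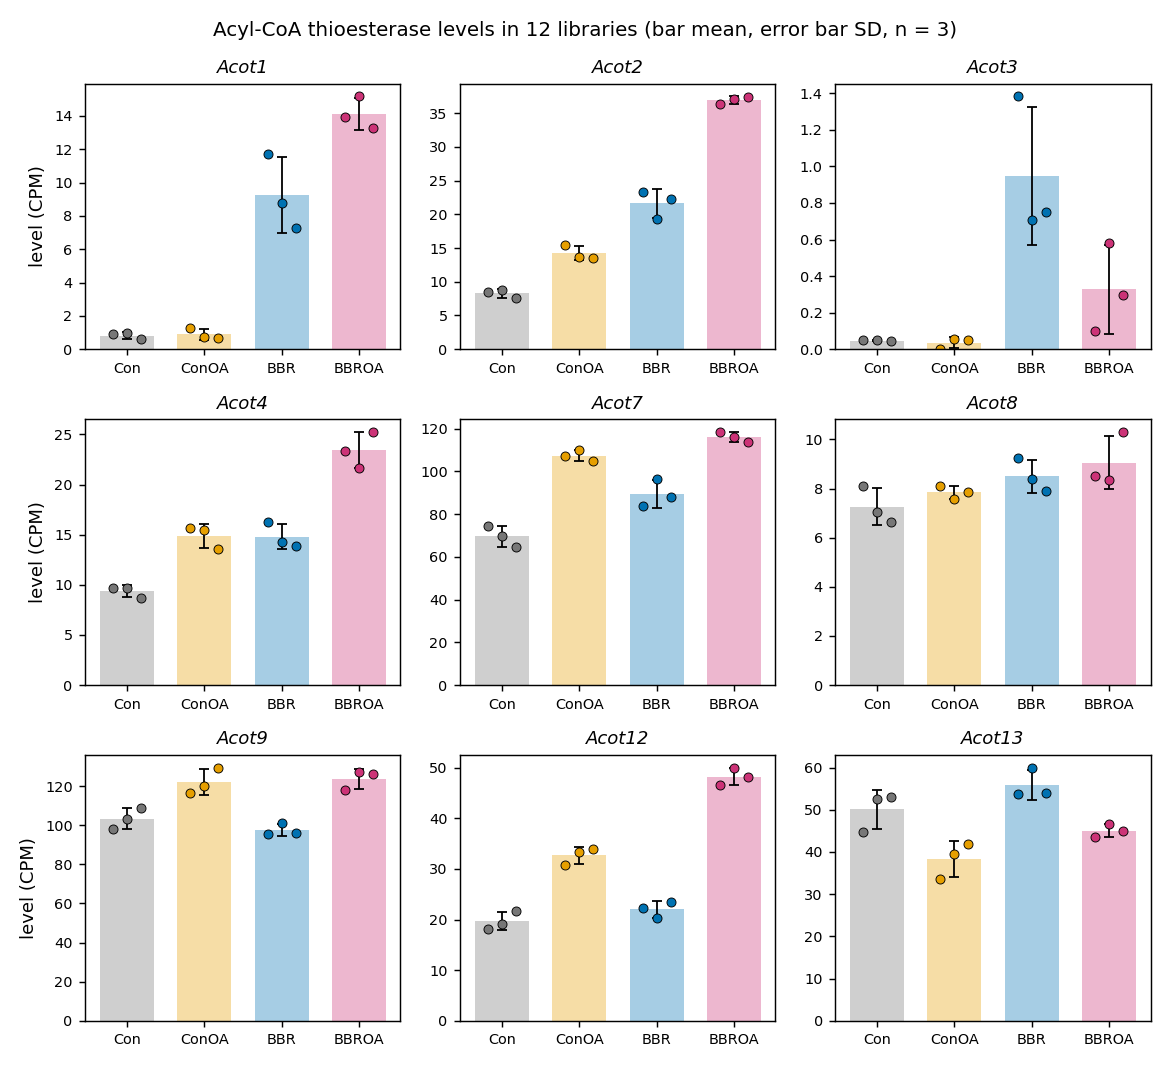
Levels of the 9 thioesterases in CPM (vertical axis, starting at 0, a separate scale for each gene) in the Con, ConOA, BBR and BBROA groups (horizontal axis). Points are single libraries, bars are means and error bars are SD over 3 libraries. Acot1 runs from 0.591 CPM in a Con library to 15.2 CPM in a BBROA library, whereas Acot9 stays between 95.7 and 129 CPM.

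Acot1 and Acot2 lie next to each other and are close in sequence, which matters for their values because the deposited counts were estimates that could be fractional. Neither gene had a whole-number count by itself, but the sum of both was whole within 0.005 counts in 12 of 12 libraries, so reads that matched both genes had been divided between them. Over the aligned coding sequence, 1178 of 1236 bases were identical (95.3%), against 83.9% for Acot1 and Acot3 and 76.6% for Acot1 and Acot4. The coding stretches printed here, from the mouse GRCm38 transcripts of GENCODE release M21, show where a read could and could not be placed. The 90-base window with the most differences holds 14, marked by capitals, at chr12:84016916-84017005 (plus strand) in Acot1 and at chr12:83992638-83992727 (plus strand) in Acot2.
Acot1: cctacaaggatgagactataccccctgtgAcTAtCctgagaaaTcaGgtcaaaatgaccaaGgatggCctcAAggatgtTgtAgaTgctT
Acot2: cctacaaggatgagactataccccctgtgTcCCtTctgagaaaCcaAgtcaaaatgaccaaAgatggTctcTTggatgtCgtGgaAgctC
A second 90-base window, at chr12:84014379-84014468 in Acot1 and chr12:83990494-83990583 in Acot2, is the same in both genes, and a read inside it cannot be assigned by sequence.
Acot1 and Acot2: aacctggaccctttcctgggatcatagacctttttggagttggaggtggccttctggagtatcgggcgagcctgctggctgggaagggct
The longest stretch without a difference was 273 bases. Of all 100-base words in the annotated transcripts, 87.6% of those of Acot1 and 82.9% of those of Acot2 occurred in no other Acot transcript, compared with 95.7% for Acot3, 99.7% for Acot4 and 100% for Acot7, Acot8, Acot12 and Acot13.

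The sum of the pair does not depend on how shared reads were divided. It ranged from 186 to 205 counts in Con, 267 to 295 in ConOA, 438 to 759 in BBR and 851 to 993 in BBROA. In CPM from library totals alone, the sum was 9.21 ± 0.90 in Con, 14.98 ± 1.43 in ConOA, 31.0 ± 3.68 in BBR and 50.7 ± 0.75 in BBROA (SD, n = 3). With both genes summed into a single row, an alternative chosen after seeing the data, the log2 fold change with BBR was 1.78 without OA and 1.76 with OA. The share of the sum assigned to Acot1 was 9.04% ± 1.52 in Con, 5.88% ± 1.34 in ConOA, 29.8% ± 4.64 in BBR and 27.6% ± 1.38 in BBROA (SD, n = 3). The split toward Acot1 therefore differed between libraries with and without BBR by more than its spread, and the size of the Acot1 difference taken alone rests on that split.

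**Figure D2:**
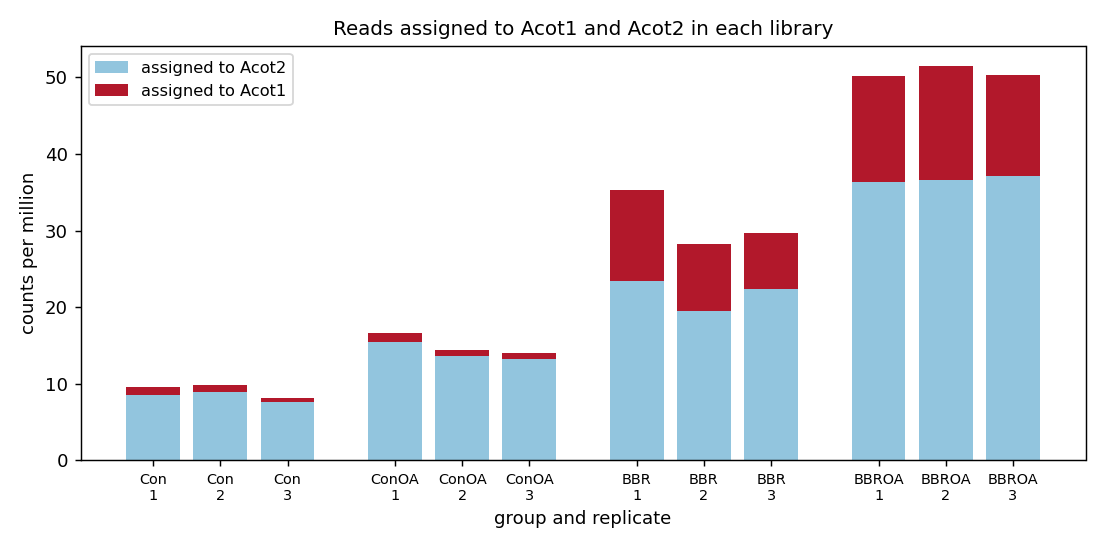
CPM (vertical axis, from library totals alone) assigned to Acot2 (blue) and Acot1 (red, stacked on top) in each of the 12 libraries (horizontal axis, group and replicate). The height of a bar is the sum of both genes, which averages 9.21 CPM in Con and 50.7 CPM in BBROA, and the red share averages 9.04% in Con and 27.6% in BBROA.

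The 5 members outside the cluster differed less with BBR. Acot7, a cytosolic enzyme with a doubled hotdog domain that is best known from brain, was at 69.5 ± 5.11 CPM in Con, 89.3 ± 6.54 CPM in BBR, 107 ± 2.49 CPM in ConOA and 116 ± 2.22 CPM in BBROA (SD, n = 3). Its log2 fold change with BBR was 0.37 (SE 0.063) without OA and 0.11 (SE 0.046) with OA. Acot12, the cytosolic acetyl-CoA hydrolase of liver, had the reverse order, with 0.17 (SE 0.082) without OA and 0.56 (SE 0.061) with OA. Acot13, a mitochondria-associated enzyme that binds phosphatidylcholine transfer protein, gave 0.16 (SE 0.068) and 0.23 (SE 0.074). Acot8, a peroxisomal enzyme of broad substrate range, gave 0.24 (SE 0.12) and 0.20 (SE 0.12), and the mitochondrial Acot9 gave -0.076 (SE 0.050) and 0.018 (SE 0.053).

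Between BBR and Con, 5 of the 9 members tested were called higher (Acot1, Acot2, Acot3, Acot4 and Acot7) and 0 lower at an adjusted p of 0.05 in edgeR, where 13.2% of 12555 genes were called higher and 14.5% lower. Between BBROA and ConOA, 4 of 8 tested members were called higher (Acot1, Acot2, Acot4 and Acot12) and 0 lower, beside 1.95% and 2.63% of 12278 genes. Because these comparisons led to the choice of the family, nothing is read from the counts. The median log2 fold change of the tested members was 0.37 and 0.39 in these comparisons, beside -0.00085 and -0.00031 over all tested genes. For the 5 members outside the cluster the median was 0.17 and 0.20.

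**Figure D3:**
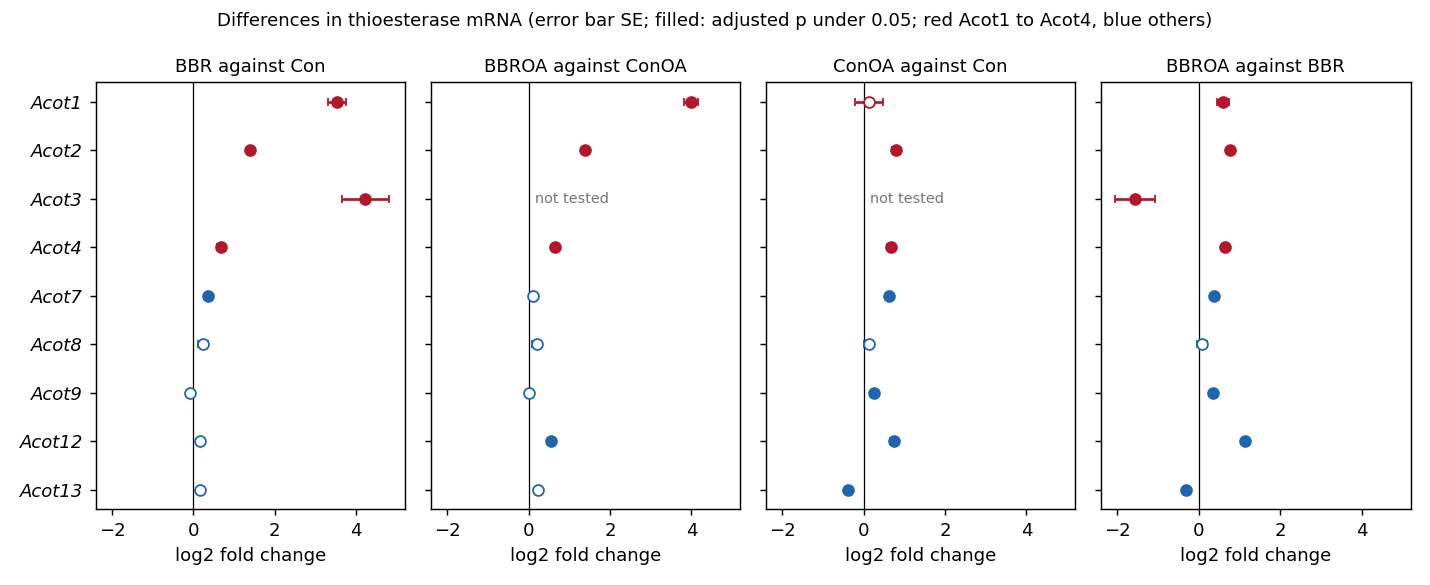
Log2 fold change (horizontal axis, the same range in all panels) of each thioesterase (vertical axis) in 4 comparisons. Error bars are SE derived from the F statistic of the edgeR test, filled symbols passed an adjusted p of 0.05, red marks Acot1 to Acot4 and blue the other members. In the BBR against Con and BBROA against ConOA panels nothing is read from the fill, because these comparisons led to the choice of the family. Acot3 did not pass the filter on low counts where not tested is written, and its fitted value between BBR and Con rests on 3 counts in Con. Acot1 and Acot3 lie farthest right with BBR, and Acot12 has the largest rise between BBROA and BBR, at 1.12.

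With OA alone, the family was divided differently. Between ConOA and Con, 5 of 8 tested members rose and 1 fell, beside 21.3% of 12418 genes called higher and 21.5% called lower, by edgeR's quasi-likelihood test with Benjamini-Hochberg adjustment over all genes. On the log2 scale, Acot2 rose by 0.79 (SE 0.099, adjusted p = 1.99e-05), Acot12 by 0.73 (SE 0.077, adjusted p = 3.76e-06) and Acot4 by 0.68 (SE 0.095, adjusted p = 5.63e-05). Acot7 rose by 0.63 (SE 0.058, adjusted p = 9.43e-07) and Acot9 by 0.24 (SE 0.056, adjusted p = 0.00286). Acot13 fell, with -0.38 (SE 0.083, adjusted p = 0.00220). Acot1 gave 0.13 (SE 0.34, adjusted p = 0.779) and Acot8 0.12 (SE 0.12, adjusted p = 0.423), and neither passed the test. The summed Acot1 and Acot2 row gave 0.74 (adjusted p = 4.35e-05), but most of its counts were assigned to Acot2, so it says little of Acot1. No tested member differed by 2-fold or more. The median of the 3 tested type I members was 0.68 and that of the 5 others 0.24, beside -0.0060 over all tested genes. Hepatocyte markers also summed higher with OA and Kupffer cell markers moved in both directions, as given above, and the part of those shifts in these values was not tested.

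In cells that also received BBR, the 5 members that rose with OA alone rose again, together with Acot1, and Acot13 fell again. Between BBROA and BBR, 6 of 9 tested members were called higher and 2 lower, 1 of which, Acot3, is set apart below, beside 20.1% of 12416 genes called higher and 18.8% called lower. Acot12 rose most, from 22.4, 20.2 and 23.4 CPM in BBR to 46.5, 49.9 and 48.2 CPM in BBROA, a difference of 1.12 on the log2 scale (SE 0.063, adjusted p = 1.05e-08). Its Con libraries stood at 18.2, 19.1 and 21.7 CPM and its ConOA libraries at 30.8, 33.4 and 33.9 CPM. The 6 libraries with OA thus lay above the 6 without it, and BBR and Con overlapped.

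Acot2 rose by 0.76 (SE 0.069, adjusted p = 9.64e-07) and Acot4 by 0.65 (SE 0.084, adjusted p = 3.00e-05) between BBROA and BBR, values close to those without the drug. Acot1 rose by 0.59 (SE 0.14, adjusted p = 0.00347), Acot7 by 0.38 (SE 0.052, adjusted p = 5.81e-05) and Acot9 by 0.34 (SE 0.046, adjusted p = 4.41e-05). The Acot9 libraries with OA spanned 116 to 129 CPM and those without OA 95.7 to 109 CPM, so the groups stood apart although the difference was small. Acot13 fell, with -0.31 (SE 0.058, adjusted p = 6.69e-04), from 53.7, 59.9 and 53.9 CPM in BBR to 43.6, 46.7 and 44.9 CPM in BBROA. It was the member that was lower with OA in both comparisons. Acot8 gave 0.078 (SE 0.12, adjusted p = 0.639), with every library of the 4 groups between 6.63 and 10.3 CPM.

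Acot3 was tested between BBROA and BBR only because its BBR libraries passed the filter on low counts. Its value was -1.57 on the log2 scale (SE 0.48, adjusted p = 0.0193), and the ratio of its counts was 0.325 with a 95% counting interval from 0.180 to 0.563. The call was lost without BBR replicate 1 (-1.16, adjusted p = 0.116), without BBROA replicate 1 (-1.11, adjusted p = 0.0821) and without BBROA replicate 3 (-1.51, adjusted p = 0.0626). No direction is read from it, and its highest library stood at 1.38 CPM.

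The interaction asks whether the difference with BBR was the same with and without OA. Of 9 members, Acot12 passed the test, with a positive term of 0.40 (SE 0.10, adjusted p = 0.0145), and 0 members had a negative term that passed, beside 6.87% of 12742 genes called positive and 5.31% called negative. The Acot12 call was lost without Con replicate 3 (0.32, adjusted p = 0.0501) and without BBROA replicate 2 (0.35, adjusted p = 0.0504). Acot7 had a term of -0.25 (SE 0.081, adjusted p = 0.0546), which passed under other scalings and under DESeq2 (adjusted p = 0.0357). For Acot2 the term was -0.018 (SE 0.12, adjusted p = 0.951) and for Acot4 -0.017 (SE 0.13, adjusted p = 0.958), so that on the log2 scale the BBROA level differed from the sum of the separate differences by less than its error. The term for Acot1 was 0.47 (SE 0.39, adjusted p = 0.488), too imprecise to place it on either side of 0.

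The type I cluster spans chr12:83987861-84111349 (GRCm38), 123.5 kb, and holds 6 genes on the plus strand in the order Acot2, Acot1, Acot4, Acot3, Acot5 and Acot6. Acot2 lies at chr12:83987861-83993873, Acot1 at chr12:84009490-84018371, Acot4 at chr12:84038379-84048601 and Acot3 at chr12:84052144-84060402. The other members are elsewhere: Acot7 on chromosome 4, Acot8 on chromosome 2, Acot9 on the X chromosome, and Acot12 and Acot13 on chromosome 13. The last genes of the cluster, the peroxisomal Acot5 and Acot6, were not among the members. Acot5, a medium-chain enzyme, gave 1.60 (SE 0.46, adjusted p = 0.0155) between BBR and Con and -1.13 (SE 0.40, adjusted p = 0.0382) between BBROA and BBR. Acot6 gave 0.58 (SE 0.13, adjusted p = 0.00305) and -0.40 (SE 0.13, adjusted p = 0.0302) in these comparisons. Acot5 had low levels, was highest in the BBR libraries and did not pass the filter on low counts between ConOA and Con. Its calls in the comparisons that held the BBR group were therefore favoured by the filter, and no direction is read from them. Between BBROA and ConOA, Acot5 gave 0.36 (SE 0.50, adjusted p = 0.752) and Acot6 0.088 (SE 0.15, adjusted p = 0.806), and neither passed the test. Acot6 had BBR above BBROA, whereas Acot1, Acot2 and Acot4 had BBROA above BBR. No direction is read for Acot3 or Acot5, as stated above. The interaction itself did not pass the test for Acot5 (-1.22, adjusted p = 0.351) or Acot6 (-0.48, adjusted p = 0.134).

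Genes flanking the cluster within 250 kb were taken by position, a choice made after seeing the data. Of the 17 genes in this window that the files listed, 6 belonged to the family. Among the others, Dnal1, which encodes a dynein light chain and follows Acot6, was higher in BBR than in Con, with 0.48 (SE 0.14, adjusted p = 0.0193), and fell between BBROA and BBR, with -0.88 (SE 0.16, adjusted p = 4.86e-04). No other tested flanking gene was called between BBROA and BBR, beside 20.1% of all genes called higher and 18.8% lower. Numb, an inhibitor of Notch signalling upstream of Acot2, gave 0.18 (SE 0.059, adjusted p = 0.0329) between BBR and Con. Riox1, the nearest tested gene before Acot2, gave -0.012 (SE 0.094, adjusted p = 0.940), and Zfp410 beyond the cluster gave -0.022 (SE 0.068, adjusted p = 0.846). Apart from Dnal1 and Numb, no tested flanking gene was called between BBR and Con, beside 13.2% and 14.5% of all genes. Between BBROA and ConOA none was called, with -0.071 for Dnal1 (adjusted p = 0.873) and -0.019 for Numb (adjusted p = 0.891). Ptgr2 fell between ConOA and Con, with -0.37 (adjusted p = 3.98e-04), and Numb rose by 0.16 (adjusted p = 0.0362). Shares over all genes there were 21.3% and 21.5%. The interaction term of Ptgr2 was 0.28 (adjusted p = 0.0411).

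**Figure D4:**
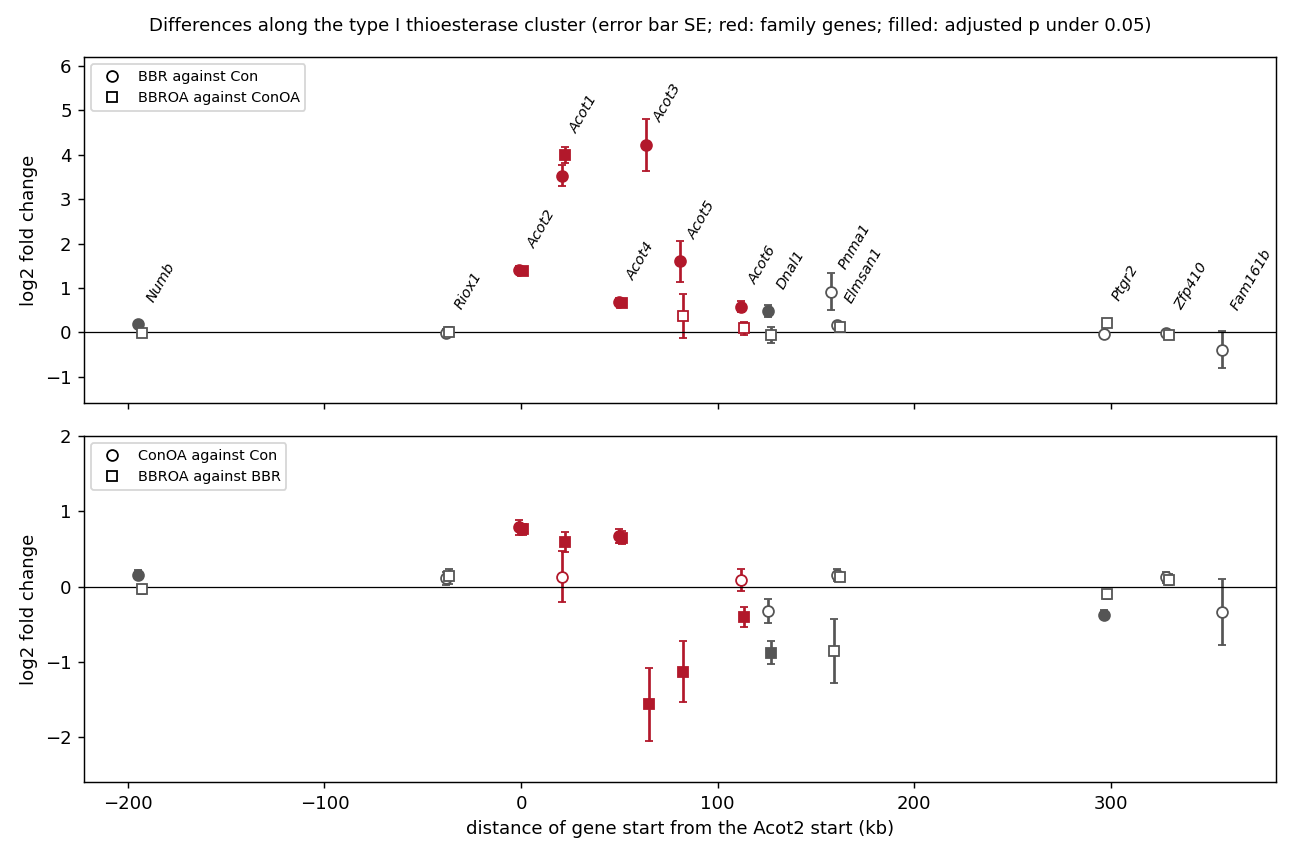
Log2 fold change (vertical axis) of genes by the distance of their start from the start of Acot2 in kb (horizontal axis), with the BBR comparisons above and the OA comparisons below. Red symbols are Acot genes, grey symbols flanking genes, error bars are SE and filled symbols passed an adjusted p of 0.05. For the family members nothing is read from the fill in the BBR comparisons, which led to the choice of the family. Acot1 and Acot2 lie above every tested flanking gene in both BBR comparisons, and between BBROA and BBR Acot2, Acot1 and Acot4 lie above 0 while Acot6 lies below it. Acot3 and Acot5 are also drawn below 0 there, but no direction is read from either. The Acot3 call was lost without single libraries, and the Acot5 call was favoured by the filter on low counts.

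The promoters of the members were compared because several Acot genes are known PPAR targets. PPARs bind DNA as partners of the retinoid X receptor at a DR1 element, the letters AGGTCA repeated directly with 1 base between the repeats. That 12-letter word was sought on both strands, with overlapping matches allowed, in 300 bases around each start site (250 before and 50 after) in RefSeq's GRCm38.p6 promoter set, which held 8 of the 9 members and not Acot13. With up to 2 mismatches, 2 of 8 members held it, Acot12 and Acot4, compared with 4.40% of 27025 genes in the set. With up to 1 mismatch, Acot12 held it, compared with 0.644% of all genes. With up to 3 mismatches it was found in 4 of 8 members and in 27.3% of all genes. The 120 bases before the first annotated start, GENCODE or RefSeq, are shown for these genes and for Acot1 and Acot2, which differed more with BBR. The matched word of at most 2 mismatches is in capitals. Between the end of the printed bases and the RefSeq start lie 9 bases in Acot12, 12 in Acot1 and 0 in Acot2 and Acot4.
Acot12, chr13:91741392-91741511, plus strand: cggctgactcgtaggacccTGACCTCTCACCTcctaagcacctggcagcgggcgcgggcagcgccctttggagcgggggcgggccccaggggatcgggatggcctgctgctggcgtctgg
Acot4, chr12:84038259-84038378, plus strand: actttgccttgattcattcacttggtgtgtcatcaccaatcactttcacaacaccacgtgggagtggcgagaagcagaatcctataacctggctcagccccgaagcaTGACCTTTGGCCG
Acot1, chr12:84009370-84009489, plus strand: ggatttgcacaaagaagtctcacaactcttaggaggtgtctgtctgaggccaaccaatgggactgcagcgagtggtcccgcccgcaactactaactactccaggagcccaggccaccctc
Acot2, chr12:83987741-83987860, plus strand: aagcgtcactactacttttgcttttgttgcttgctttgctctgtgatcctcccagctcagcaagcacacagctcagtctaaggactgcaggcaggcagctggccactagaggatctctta
In Acot12 the word matched 11 of 12 letters, on the minus strand, at positions -110 to -98 from the RefSeq start, where -1 is the base just before it. In Acot4 it matched 10 of 12 letters on the minus strand at positions -13 to -1. The best match in Acot1 had 8 of 12 letters and in Acot2 9 of 12. A match describes letters in this window and no binding was measured. In the 250 bases before the start, 123 of 221 aligned bases of Acot1 and Acot2 were identical, against 1178 of 1236 in the coding sequence. Over the full length of 250 bases the identity was 49.2%. That was the highest of the 10 pairs among Acot1 to Acot5, of which the lowest was 39.6%.

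The receptors that bind such words were themselves measured. Pparg fell with OA, with -0.62 (SE 0.096, adjusted p = 1.29e-04) between ConOA and Con and -0.94 (SE 0.11, adjusted p = 1.53e-05) between BBROA and BBR. Ppara rose with OA, with 0.62 (SE 0.12, adjusted p = 8.72e-04) and 0.43 (SE 0.16, adjusted p = 0.0447), although its BBROA and BBR libraries overlapped. Between BBR and Con, Pparg gave -0.0082 (SE 0.094, adjusted p = 0.960) and Ppara 0.078 (SE 0.15, adjusted p = 0.752), and Hnf4a, a liver receptor that also binds DR1 words, fell by 0.26 (SE 0.050, adjusted p = 9.29e-04). Between BBROA and ConOA, Pparg gave -0.33 (SE 0.12, adjusted p = 0.136), Ppara -0.11 (SE 0.13, adjusted p = 0.695) and Hnf4a -0.033 (SE 0.049, adjusted p = 0.773). None of them passed the test there. The interaction term of Hnf4a was 0.24 (SE 0.069, adjusted p = 0.0311). Ppard passed the test in none of the 4 comparisons, with values between -0.16 and -0.10. These are mRNA levels and say nothing of receptor activity.

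Per length, the members spanned a wide range of levels. In FPKM, the deposited unit that scales fragments by gene length and library depth, Acot13 stood at 70.3 ± 6.01, Acot9 at 59.7 ± 2.48 and Acot7 at 48.3 ± 4.09 in Con (SD, n = 3). Acot12 followed at 6.52 ± 0.54, Acot8 at 6.40 ± 0.75, Acot2 at 3.81 ± 0.31, Acot4 at 1.69 ± 0.26, Acot1 at 0.49 ± 0.27 and Acot3 at 0.030 FPKM in each library. Acot12 and Acot8 did not differ beyond their spread. In BBROA, Acot2 had moved to the fourth place at 16.7 ± 0.20 FPKM, next to Acot12 at 15.6 ± 0.45, and Acot1 to the seventh at 6.43 ± 0.62, below Acot8 at 7.80 ± 0.94. Acot7, Acot9 and Acot13 remained the most abundant members in all 4 groups, and Acot3 the least abundant, at 0.44 ± 0.18 FPKM in BBR.

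Other enzymes that hydrolyse CoA esters were listed for comparison. Of 12 listed genes, 10 were tested between BBR and Con, where 2 were higher and 3 lower, beside 13.2% and 14.5% of all tested genes. Baat, which joins bile acids to taurine or glycine and shares the fold of the type I enzymes, had the largest difference, from 3.91, 4.09 and 3.67 CPM in Con to 0.784, 0.320 and 0.859 CPM in BBR. The difference on the log2 scale was -2.50 (SE 0.26, adjusted p = 2.70e-06), followed by Acot5 and Acot6 with the values given above. Baat was at 5.33, 2.98 and 5.41 CPM in ConOA and at 3.60, 3.49 and 3.87 CPM in BBROA, so these groups overlapped. It rose between BBROA and BBR by 2.42 (SE 0.27, adjusted p = 7.10e-06), and its interaction term was 2.18 (SE 0.36, adjusted p = 5.58e-04), the 1 call of the list, beside 6.87% of all genes called positive and 5.31% negative.

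Between BBROA and ConOA, 1 of the 10 tested genes of this list was higher, Nudt7, a peroxisomal CoA diphosphatase (0.35, adjusted p = 0.0324), and 0 were lower, beside 1.95% and 2.63% of all genes. Between ConOA and Con, 1 of 9 fell, the lysosomal palmitoyl-protein thioesterase Ppt1 (-0.49, adjusted p = 3.29e-06), and 0 rose, beside 21.3% of all genes called higher and 21.5% lower. Between BBROA and BBR, 2 of 10 rose and 3 fell, beside 20.1% and 18.8% of all genes, led by Baat, Acot5 and Acot6. Acot10 and Them5 were at 0 in all 12 libraries, which allows up to 0.127 to 0.194 CPM per library. Acot11 and Them4 passed the test in none of the comparisons.

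**Figure D5:**
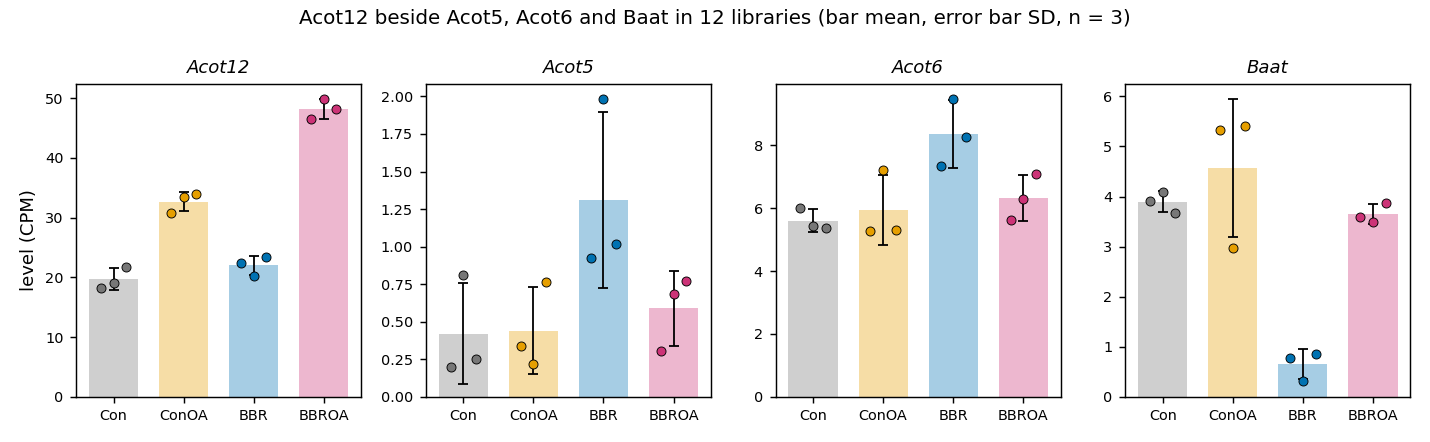
Levels in CPM (vertical axis, starting at 0, a separate scale for each gene) of Acot12, Acot5, Acot6 and Baat in the 4 groups (horizontal axis). Points are libraries, bars are means and error bars are SD over 3 libraries. Acot12 is highest in BBROA at 48.2 CPM, Acot5 and Acot6 are highest in BBR at 1.31 and 8.36 CPM, and Baat is lowest in BBR at 0.655 CPM.

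Acyl-CoA synthetases, which form the substrates of the thioesterases, were listed for comparison. Of 18 genes, 14 were tested. Between ConOA and Con, 2 rose and 8 fell, beside 21.3% and 21.5% of all genes, with a median of -0.33, and the largest differences were those of the medium-chain enzymes Acsm3 (-1.20, adjusted p = 2.52e-04) and Acsm5 (-1.02, adjusted p = 0.00203) and of the very-long-chain synthetase Slc27a2 (-0.88, adjusted p = 5.69e-07). Between BBROA and BBR, 1 rose and 5 fell, beside 20.1% and 18.8% of all genes, led by Slc27a1, a fatty acid transport protein (-1.25, adjusted p = 6.24e-08), Acss2, an acetyl-CoA synthetase (-0.49, adjusted p = 1.56e-05) and Acsl5 (-0.41, adjusted p = 4.08e-06). The thioesterase members had medians of 0.44 and 0.38 in the same OA comparisons, and the difference between the lists was not tested.

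With BBR, 3 synthetases were higher and 3 lower than in Con, beside 13.2% and 14.5% of all genes, led by Acsm5 (-1.19, adjusted p = 6.33e-04), Acsm3 (-0.90, adjusted p = 0.00313) and Acsl3 (0.86, adjusted p = 1.48e-07). In the presence of OA, 3 were higher and 1 lower, beside 1.95% and 2.63% of all genes, led by Slc27a2 (0.82, adjusted p = 5.82e-05), Acsl1, the main long-chain synthetase of liver (0.66, adjusted p = 1.90e-05) and Slc27a1 (-0.48, adjusted p = 0.0232). The interaction was positive for 4 and negative for 2, beside 6.87% and 5.31% of all genes, led by Acsm3 (1.45, adjusted p = 0.00239), Acsm5 (1.40, adjusted p = 0.00953) and Slc27a2 (0.98, adjusted p = 8.22e-04).

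Genes of CoA synthesis and acyl-CoA binding were all tested, 17 of 17. Between ConOA and Con, 4 rose and 8 fell, beside 21.3% and 21.5% of all genes, led by the pantetheinases Vnn1 (-1.85, adjusted p = 2.84e-09) and Vnn3 (-0.90, adjusted p = 3.51e-04) and the mitochondrial CoA carrier Slc25a42 (-0.70, adjusted p = 2.61e-04). Between BBROA and BBR, 6 rose and 2 fell, beside 20.1% and 18.8% of all genes, led by Vnn1 (-1.47, adjusted p = 1.09e-06), the acyl-CoA-binding Acbd4 (0.70, adjusted p = 3.79e-05) and Enpp1 (0.62, adjusted p = 0.00164). Between BBROA and ConOA, 4 were higher and 0 lower, beside 1.95% and 2.63% of all genes, led by Slc25a42 (0.50, adjusted p = 0.0351), Vnn1 (0.48, adjusted p = 0.0423) and Dcakd (0.30, adjusted p = 0.0324). Between BBR and Con, 2 were higher and 2 lower, beside 13.2% and 14.5% of all genes, led by Vnn3 (-0.53, adjusted p = 0.0194), the pantothenate kinase Pank3 (0.37, adjusted p = 2.44e-05) and Acbd4 (-0.30, adjusted p = 0.0334). The interaction was positive for 4 and negative for 1, beside 6.87% and 5.31% of all genes, led by Vnn3 (0.91, adjusted p = 0.0334), Slc25a42 (0.55, adjusted p = 0.0385) and Acbd4 (0.48, adjusted p = 0.0456).

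The genes whose log2 CPM followed each type I member most closely over the 12 libraries are given as a description, since the libraries share 4 groups. For Acot2, among 11629 genes, these were Lpcat3, a lysophospholipid acyltransferase (Pearson r = 0.98), Cpt1a, the carnitine palmitoyltransferase of the outer mitochondrial membrane (0.98), Impdh1 (0.97), Angptl4, an inhibitor of lipoprotein lipase (0.97), and the fatty acid transporter Slc27a4 (0.96). For Acot4 they were Acadl, a long-chain acyl-CoA dehydrogenase (0.97), Creb3l3, a liver transcription factor (0.97), Sec23a (0.97), the lipid droplet protein Cidec (0.97) and Angptl4 (0.96). For Acot1 they were Aldh9a1 (0.96), Hist1h2bc (0.96), Impdh1 (0.95), Rbm14 (0.95) and Hid1 (0.95). For Acot3, whose counts were few, they were Atg9a (0.95), Me2 (0.94), Bsg (0.94), a locus without a symbol (0.93) and Impact (0.93).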

How the data were processed

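Polyadenylated RNA of 12 hepatocyte libraries was sequenced on an Illumina instrument. The authors deposited, per library, an estimated count and an FPKM value for each gene, with mm10 named as the build; the aligner, the counting program and the use of strand were not given in the sources used here. Estimated counts were rounded to whole numbers and scaled to CPM by the library total times its TMM factor, or by the total alone for the floor of 3 counts and the sum of Acot1 and Acot2. Differences were fitted with edgeR 4.0.16 (R 4.3.3, limma 3.58.1) by the quasi-likelihood test with TMM scaling, after a filter on low counts (minimum 10), over the 6 libraries of each comparison or all 12 for the interaction, with Benjamini-Hochberg adjustment over all tested genes and a threshold of 0.05. The procedure was tested on simulated data. The SE given with a log2 fold change is its absolute value divided by the square root of the F statistic of the edgeR test. DESeq2 1.42.0 served as an alternative. FPKM was used only to order genes by level.

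The members and all gene lists were chosen with earlier results of these data known. Named genes were the members, the 3 called genes with the largest difference per list and comparison, and the 5 genes nearest to each type I member by correlation over log2 CPM (prior count 1, mean of at least 1 CPM). Receptors were added beside the promoter words. Same-numbered replicates were checked for pairing by the correlation of their deviations. It ranged from -0.046 to 0.244, above 0.1 for some pairs and below it for others, and no block entered the main fits. Replicates of a group differed by more than counting noise. Gene models came from GENCODE M21, which held 21848 of 21911 Ensembl identifiers, and sequences were handled with Biopython 1.88 in Python 3.11.15. Acot8 shares exon sequence with Snx21 on the opposite strand, and their fractional counts also summed to whole numbers. Acot3 and Acot4 overlap exons of the gene model Gm49366 on the same strand, where strand use would not tell shared reads apart. Antisense models overlap Acot3, Acot4 and Acot12, and without known strand use the reads of these overlaps cannot be told apart.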

Additional observations from a re-analysis of the deposited data

Results flagged for a closer look

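Acot12 had a larger difference with BBR in OA-treated than in OA-free cells, a call that rests on single libraries. The test of the difference itself, the interaction term of edgeR's quasi-likelihood fit over 12 libraries, gave 0.40 (adjusted p = 0.0145): the log2 fold change with BBR was 0.56 with OA and 0.17 without it. The call was lost without Con replicate 3 (0.32, adjusted p = 0.0501) and without BBROA replicate 2 (0.35, adjusted p = 0.0504). All 3 BBROA libraries lay above all 3 ConOA libraries, whereas BBR and Con overlapped. The part of the shifts in cell type markers in this difference was not tested.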

How the results depend on the processing

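Of 75 recounts of the members called, 60 stayed within 1.5 times the main count. A required 2-fold change left 3 members between BBR and Con, 2 between BBROA and ConOA, 0 between ConOA and Con, 2 between BBROA and BBR and 0 for the interaction. The interaction had 2 called members (Acot12 and Acot7) under RLE scaling, upper quartile scaling, DESeq2, no filter on low counts and the replicate block. Leaving out a library gave 5 to 6 members between BBR and Con, 4 to 5 between BBROA and ConOA, 6 between ConOA and Con, 7 to 8 between BBROA and BBR and 0 to 2 for the interaction, with 0 without Con replicate 3 or BBROA replicate 2. The cause of these shifts was not tested.

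Of 619 member differences recomputed, 582 kept their direction and side of the threshold and 18 changed sign, none of them past it. The row summing Acot1 and Acot2, mostly Acot2 reads, had an interaction term of -0.017. The row summing Acot8 and Snx21 gave -0.14 between BBROA and BBR, but Acot8 made up only 33.4% to 39.1% of it by group, and Snx21 alone gave -0.27, so it is no value for Acot8. With 1 library left out, the values that changed sign ranged from -0.014 to 0.067 for Acot9 between BBROA and ConOA, from -0.18 to 0.31 for Acot1 between ConOA and Con, and from -0.019 to 0.14 for Acot8 between BBROA and BBR. The interaction terms ranged from -0.086 to 0.046 for Acot2, from -0.091 to 0.058 for Acot4, from -0.15 to 0.032 for Acot8 and from -0.011 to 0.15 for Acot13.

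The replicate block raised the genes called between BBROA and ConOA from 563 to 1333. In that comparison the deviations of replicates 1, 2 and 3 correlated at 0.244, 0.041 and 0.107. Whether the replicate numbers pair the samples is not settled by these values. Without a library, that comparison gave 216 to 632 genes (373, 230 and 216 without BBROA replicates 1, 2 and 3, and 249 without ConOA replicate 2), and the interaction 1027 to 1679 (1027 without ConOA replicate 2 and 1028 without BBR replicate 2), against 1551 over all libraries. A required 2-fold change left 276, 31, 617, 550 and 161 genes in BBR against Con, BBROA against ConOA, ConOA against Con, BBROA against BBR and the interaction. Ranking by Spearman's rho shared 0 of 5 nearest genes for Acot1 and Acot3 and 2 of 5 for Acot2 and Acot4. Levels per annotated exon length kept 7, 4, 5 and 6 members at their FPKM rank in Con, ConOA, BBR and BBROA. Depth limits Acot3 most, at 2 to 55 counts per group.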
